A study of Arabidopsis thaliana with 16 samples.

Results

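Of 25444 Arabidopsis genes with a read in any library, 133 had a lower transcript level in zed1-D than in wild type (WT) after 48 h at 28 °C and not clearly so at the earlier hours. They were chosen on counts per 1000000 mapped reads (CPM). The difference d is log2(CPM + 1) in zed1-D minus that in the WT library of the same hour and replicate number. A member had a d of -1 or less in both replicate pairs at 48 h, as 1.47% of the genes that passed the expression filter did, and a mean d above -0.5 at 0, 3 and 12 h. Because d chose these genes, its values are given as a description and carry no test. Another 9 genes of anthocyanin synthesis were removed by name, of which 6 met the thresholds (TT7, DFR, LDOX, UF3GT, AT4G14090 and AT5MAT).

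The mutant was zed1-D, named for a dominant allele of the gene ZED1, whose pseudokinase product works with the immune receptor ZAR1. It was set against wild-type Columbia-0. Both genotypes grew at 18 °C under 16 h of light and 8 h of dark until the primary stem had bolted to between 0.5 and 1.0 cm, and were then moved to 28 °C. Tips of the inflorescence with young leaves were collected 0, 3, 12 and 48 h after the move, so the 0 h plants of both genotypes had not been warmed. Each of the 8 groups held 2 libraries, and the labels name 1 zed1-D line. No group was kept at 18 °C to the later hours. A change over time within a genotype therefore cannot tell warming apart from time of day or plant age. The labels give no clock time for any harvest. They also do not say whether the 2 libraries of a group came from separate plants, so each p-value reflects only how far these libraries spread, which may be technical.

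Plants with an active immune receptor commonly trade growth for defence, and in many such mutants the balance depends on temperature. Shoots also hold other defences. One is the ER body, a compartment derived from the endoplasmic reticulum and packed with beta-glucosidases, which Brassicaceae form in the epidermis and, after wounding or jasmonate, in leaves. Jacalin-type lectins and myrosinase-binding proteins are found in complexes with these glucosidases. Cold-regulated genes form another well-known shoot programme, driven at low temperature by CBF factors that bind the dehydration-responsive element in promoters.

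Libraries held 4.74 to 5.86 M counted reads (M, 1000000 reads) for replicate 1 and 10.35 to 11.39 M for replicate 2. Same-numbered libraries deviated from their group means together, with correlations of 0.68 to 0.88 over 28 pairs of groups, and fits with a term for the replicate number are called blocked. ZED1 itself was read at 4.08 to 16.7 CPM, which does not check the labels because the zed1-D allele is dominant. Markers of other tissues at 48 h were summed per library. The 12 floral organ identity genes summed to 93.2 and 113 CPM in zed1-D against 103 and 139 CPM in WT, and 10 leaf photosynthesis genes to 31563 and 33320 CPM in zed1-D against 41824 and 35430 CPM in WT. Tapetum and pollen wall genes summed to 55.7 and 50.3 CPM in zed1-D against 80.1 and 97.5 CPM in WT, mature pollen genes to 95.2 and 87.4 CPM in zed1-D against 96.0 and 90.7 CPM in WT, and 8 phloem, trichome and stomatal genes, leaving out the member SEOR1, to 239.8 and 191 CPM in zed1-D against 272 and 185 CPM in WT. DYT1 of the tapetum and MGH3 of pollen had no read at 48 h. The part of these tissues in the results was not tested, and in such whole organs fewer cells of a type and less RNA per cell cannot be told apart.

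The 133 members summed to 6440 and 6122 CPM in zed1-D at 48 h, against 16505 and 15536 CPM in WT. Their median d was -0.06 at 0 h, -0.03 at 3 h, -0.16 at 12 h and -1.34 at 48 h, where it ran from -5.44 to -1.03. The 19312 genes that passed the expression filter, which include all 133 members, had medians of 0.04, 0.08, 0.01 and 0.04 at those hours. Most members lay close to the threshold, since 100 had a mean d above -1.5 at 48 h, 29 lay between -2 and -1.5 and 4 at -2 or less. In every member but AT2G27740 both zed1-D libraries lay below both WT libraries at 48 h, as they did in 21.7% of all genes passing the filter. The rule chose members on these same libraries, so this was largely fixed in advance and is no contrast with all genes. Levels spanned a wide range, with a median of 5.49 CPM in zed1-D and 14.9 CPM in WT at 48 h, and 24 members under 5 CPM and 20 at 100 CPM or more in WT. The members are spread over the genome, with 38, 20, 21, 24 and 29 of the 132 that matched a RefSeq locus on chromosomes 1, 2, 3, 4 and 5.

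**Figure D1:**
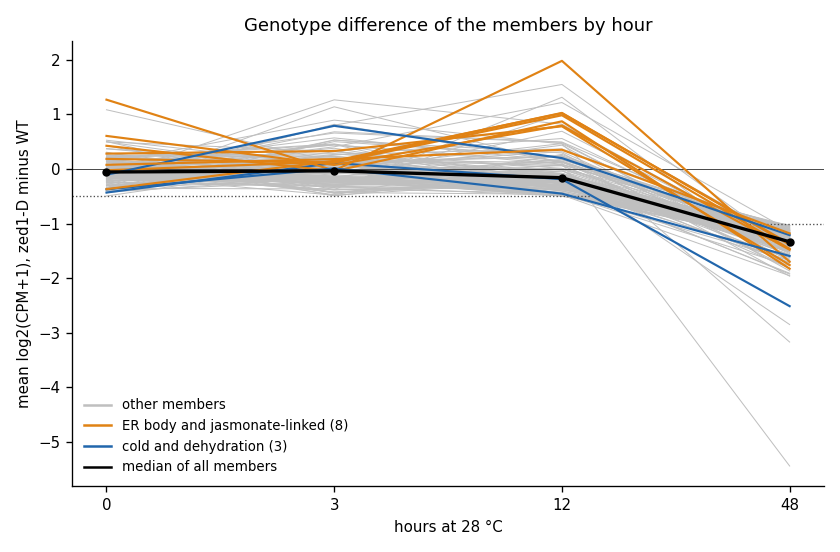
Mean difference in log2(CPM + 1), zed1-D minus WT, at 0, 3, 12 and 48 h for each of the 133 members, with 2 gene groups in colour, the median in black and dotted lines at the thresholds that chose the members. The median lay at -0.16 at 12 h and at -1.34 at 48 h, and the 8 ER body and jasmonate-linked members lay above 0 at 12 h.

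A gap between the genotypes at 48 h can arise from a lower level in zed1-D than before warming, a higher level in WT or both, and the members divide between these. The mean log2(CPM + 1) was lower at 48 h than at 0 h by 1 or more in zed1-D in 58 members (3.73% of all genes) and higher by 1 or more in WT in 27 (2.09%). Of these, 3 members did both, 55 met the zed1-D side alone, 24 met the WT side alone, and 51 had smaller differences on each side. The median member differed by -0.88 in zed1-D and by 0.55 in WT over 48 h (0.07 in zed1-D and 0.05 in WT over the genes passing the filter), and by -0.82 in zed1-D and 0.39 in WT between 12 and 48 h. The 48 h libraries chose these genes, so these counts describe them and nothing is read from the background beside them.

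**Figure D2:**
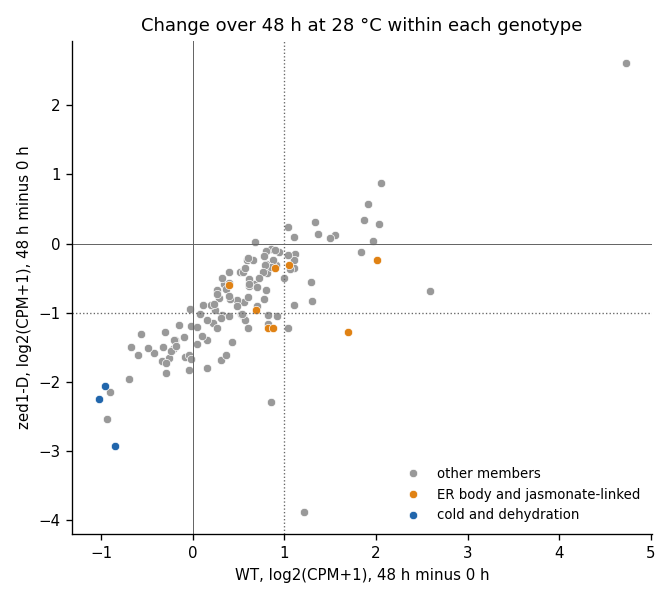
Change in mean log2(CPM + 1) between 0 and 48 h in zed1-D (vertical axis) and in WT (horizontal axis) for the 133 members, with dotted lines at 1 and -1. In 58 members the zed1-D change was -1 or less and in 27 the WT change was 1 or more, while the 3 cold-linked members lay below 0 on both axes.

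The deepest member was AT5G37940, a zinc-binding dehydrogenase family gene, followed by AT5G37970, a gene of the methyltransferases that use S-adenosylmethionine. Both sit on chromosome 5, with 14100 bases and 2 protein-coding genes between them. Their promoters are shown because the genes were low together in zed1-D at 48 h and lie near each other. Each line is the 250 bases before the annotated gene start in RefSeq TAIR10.1, read 5′ to 3′ in the direction of the gene (AT5G37940 at chr5:15106874-15107123, forward strand, AT5G37970 at chr5:15124436-15124685, reverse strand), and no motif is marked.
AT5G37940: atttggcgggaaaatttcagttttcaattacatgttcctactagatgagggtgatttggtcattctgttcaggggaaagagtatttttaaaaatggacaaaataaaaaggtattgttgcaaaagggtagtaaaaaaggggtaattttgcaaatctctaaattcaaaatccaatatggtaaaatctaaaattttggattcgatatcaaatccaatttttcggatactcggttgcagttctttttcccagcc
AT5G37970: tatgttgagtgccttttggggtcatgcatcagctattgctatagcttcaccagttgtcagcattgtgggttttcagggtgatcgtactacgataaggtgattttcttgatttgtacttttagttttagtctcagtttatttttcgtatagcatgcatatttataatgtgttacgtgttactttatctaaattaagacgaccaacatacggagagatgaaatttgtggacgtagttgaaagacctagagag

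At 0 h AT5G37940 had 14.4 and 17.1 CPM in zed1-D, against 19.3 and 21.2 CPM in WT. At 3 h it had 19.4 and 25.7 CPM in zed1-D, against 9.07 and 10.2 CPM in WT, and at 12 h 12.5 and 14.3 CPM in zed1-D, against 11 and 13.9 CPM in WT. By 48 h it had 0 and 0.285 CPM in zed1-D, against 43.8 and 53.3 CPM in WT. The transcript was thus above its 0 h level in both WT libraries and almost gone in zed1-D at the last hour, while at 3 h both zed1-D libraries lay above both WT libraries. The 48 h values rest on 3 reads in zed1-D and 822 in WT. In WT the gene fell in the first 3 h (-1.06 ± 0.22 SE on the log2 scale, edgeR adjusted p 0.039), a call that ended on leaving out any 1 of the 4 libraries (highest p 0.21, without WT 3 h replicate 2).

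AT5G37970 was barely read before 48 h, at 0.895 and 1.53 CPM in zed1-D, against 0.415 and 0.79 CPM in WT at 12 h. It then reached 7.56 and 8.49 CPM in WT, with no read in either zed1-D library. With both zed1-D libraries pooled, a count of 0 allows up to 0.191 CPM (3 reads, a 95% bound). Against the pooled WT level of 8.19 CPM, that limit is at least 42.8-fold lower in zed1-D. The bound covers the sampling of reads in zed1-D alone, not the spread between libraries or the error of the WT level. Of the genes between them, AT5G37950, a UDP-glycosyltransferase family gene, is no member because its mean d at 0 h was -0.68. It had 0.194 and 0.569 CPM in zed1-D against 10.4 and 13.4 CPM in WT at 48 h (log2 fold change -4.79 ± 0.45, edgeR adjusted p 4.2e-05). Adjacent copies of these families can share reads, and counts of uniquely mapped reads leave such reads out.

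Another 2 members had a mean d of -2 or less. AT1G31710, a copper amine oxidase family gene, had 11.7 and 6.92 CPM in zed1-D, against 85.8 and 59.2 CPM in WT at 48 h, 12.8% of the WT mean, and 67.3 and 47.6 CPM in zed1-D, against 65.5 and 49.8 CPM in WT at 12 h. The genotypes overlapped at 12 h and stood apart at 48 h. The other was KIN2, described next.

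The 3 cold- and dehydration-linked members were KIN2, a cold-inducible gene of the COR6.6 family, LTI30, a dehydrin, and AT4G30650, of the low-temperature and salt responsive proteins. In both genotypes KIN2 and AT4G30650 fell within 3 h of warming. By 48 h WT stood well above its 3 h level for both genes, while zed1-D stood lower than that for KIN2 and close to it for AT4G30650. KIN2 had 390.1 and 363 CPM in zed1-D, against 525 and 490.4 CPM in WT at 0 h. The level was 139.6 and 117 CPM in zed1-D, against 128 and 110.0 CPM in WT at 3 h and 98.1 and 77.3 CPM in zed1-D, against 104 and 95.1 CPM in WT at 12 h. It was 45.2 and 52.2 CPM in zed1-D, against 312 and 255 CPM in WT at 48 h. The WT libraries were thus higher at 48 h than at 12 h and the zed1-D libraries lower, at 17.2% of the WT mean.

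The early fall of KIN2 passed the test in both genotypes. Against 0 h it was -1.59 ± 0.22 at 3 h in zed1-D (edgeR adjusted p 0.0034, 0.058 without zed1-D 3 h replicate 2) and -2.09 ± 0.22 in WT (0.001). At 12 h it was -2.12 ± 0.23 in zed1-D (9.8e-05) and -2.41 ± 0.23 in WT (0.00057). The estimated fall of AT4G30650 at 3 h was larger, at -2.60 ± 0.22 in zed1-D (0.00026) and -2.95 ± 0.22 in WT (9.2e-05). It had 219 and 217 CPM in zed1-D, against 298 and 269 CPM in WT at 0 h and 43.5 and 46.7 CPM in zed1-D, against 146 and 131 CPM in WT at 48 h, after 40.1 and 33.8 CPM in zed1-D, against 38.6 and 34.6 CPM in WT at 3 h. At 12 h it was lower by -1.73 ± 0.21 in zed1-D (0.00025) and -1.69 ± 0.21 in WT (0.0031, 0.057 without WT 12 h replicate 2). The genotypes overlapped at 3 h and stood apart at 48 h.

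LTI30 was far weaker, with 6.6 and 12.6 CPM in zed1-D, against 9.05 and 10.9 CPM in WT at 0 h and 1.36 and 1.52 CPM in zed1-D, against 5.29 and 4.07 CPM in WT at 48 h. It was lower at 3 h in WT (-1.71 ± 0.37, edgeR adjusted p 0.043) and at 12 h in zed1-D (-1.42 ± 0.36, 0.021). The WT call ended on leaving out any 1 of the 4 libraries (highest p 0.21), and the zed1-D call without 0 h replicate 2 (0.24) or either 12 h library (0.1 for each). At 3 h in zed1-D it passed only when blocked (0.0013). At 12 h in WT it passed blocked (7e-06) and with DESeq2 (adjusted p 0.011), and edgeR gave 0.051.

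Cold-inducible promoters are known for the dehydration-responsive element, whose core CCGAC was searched on both strands. The promoters of LTI30 (chr3:18940393-18940642, forward strand) and AT4G30650 (chr4:14953954-14954203, forward strand) are shown because they hold the element within this window. Capitals mark each match, which reads GTCGG where it lies on the other strand.
LTI30: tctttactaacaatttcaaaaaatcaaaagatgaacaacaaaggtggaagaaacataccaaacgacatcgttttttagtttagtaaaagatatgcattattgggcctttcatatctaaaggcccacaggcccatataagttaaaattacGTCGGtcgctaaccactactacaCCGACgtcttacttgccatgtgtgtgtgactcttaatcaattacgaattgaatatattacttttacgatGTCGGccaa
AT4G30650: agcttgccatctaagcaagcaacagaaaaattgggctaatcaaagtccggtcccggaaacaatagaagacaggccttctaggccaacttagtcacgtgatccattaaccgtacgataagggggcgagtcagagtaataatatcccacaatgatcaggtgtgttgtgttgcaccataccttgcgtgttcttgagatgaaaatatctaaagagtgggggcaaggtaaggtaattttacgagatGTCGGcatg

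LTI30 held 3 matches, starting 101, 78 and 9 bases before the gene start, and AT4G30650 held 1, at 9 bases. Across all members the element was no more frequent than elsewhere, in 9.09% of 132 members' promoters against 13% of 18934 promoters of genes passing the filter. KIN2 had no match in this window.

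**Figure D3:**
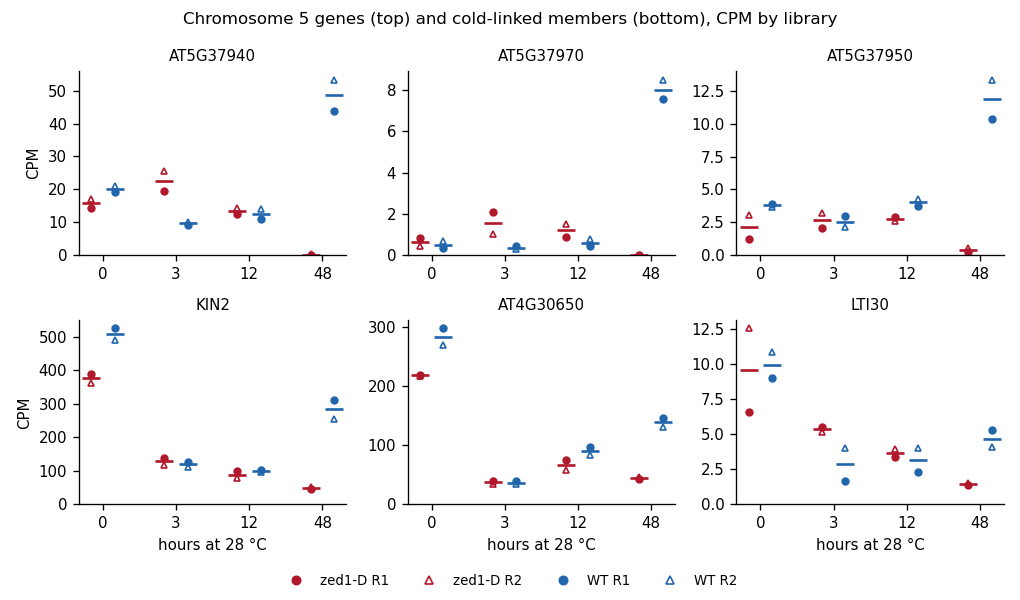
CPM in every library at 0, 3, 12 and 48 h for AT5G37940, AT5G37970 and their neighbour AT5G37950 (top) and for KIN2, AT4G30650 and LTI30 (bottom), zed1-D in red left of WT in blue, with bars at the mean of 2 libraries. The chromosome 5 genes were near 0 in zed1-D at 48 h, and the cold-linked genes were highest at 0 h in both genotypes.

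Among the ER body and jasmonate-linked members the order of the genotypes turned round. All 8 stood higher in zed1-D than in WT at 12 h, with a median d of 0.93 (0.35 to 1.98), and lower at 48 h, with a median of -1.47 (-1.83 to -1.18). In 6 of the 8 both zed1-D libraries lay above both WT libraries at 12 h, as they did in 24.1% of all genes passing the filter. At 48 h they differed from 12 h by -2.83 to -1.39 on the log2(CPM + 1) scale in zed1-D and by 0.06 to 0.86 in WT. The rule fixed the 48 h side, so any member that was higher in zed1-D at 12 h must turn round. These genes were also grouped after their values were seen. PYK10, another beta-glucosidase of ER bodies that is no member, did not share the turn-round. It had 78.4 and 84.4 CPM in zed1-D, against 93.9 and 108 CPM in WT at 12 h, and 101 and 102 CPM in zed1-D, against 86.6 and 91.8 CPM in WT at 48 h. Among all 133 members, 14 or 10.5% had a d of 0.5 or more in both pairs at 12 h, a share near the 12% of all genes.

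BGLU18, the beta-glucosidase of ER bodies in leaves, had 1162 and 1059 CPM in zed1-D, against 992 and 839 CPM in WT at 0 h and 1443 and 1279 CPM in zed1-D, against 1239 and 944 CPM in WT at 3 h. It had 2243 and 2008 CPM in zed1-D, against 1336 and 1139 CPM in WT at 12 h, and 559.7 and 405 CPM in zed1-D, against 1691 and 1546 CPM in WT at 48 h. Both zed1-D libraries were thus the higher pair at 12 h and the lower pair at 48 h. Per length it was among the most abundant members, at 231 RPKM (the authors' values, scaled for gene length and mapped reads) in zed1-D and 774 RPKM in WT at 48 h.

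JAL23, a jacalin-related lectin, had 239 and 398 CPM in zed1-D, against 136 and 207 CPM in WT at 12 h and 66.6 and 84.9 CPM in zed1-D, against 206 and 353 CPM in WT at 48 h. JR1, a jasmonate-responsive mannose-binding lectin, had 372 and 592 CPM in zed1-D, against 188 and 298 CPM in WT at 12 h and 81.6 and 97.4 CPM in zed1-D, against 192 and 319 CPM in WT at 48 h. For both lectins the genotypes stood apart at each of these hours, in opposite order, and the replicate 2 library was the higher of each pair. MBP2, a myrosinase-binding protein, had 195 and 256 CPM in zed1-D, against 92.7 and 129 CPM in WT at 12 h and 60.6 and 80.1 CPM in zed1-D, against 166 and 205 CPM in WT at 48 h. Its neighbour MBP1 had 194 and 367 CPM in zed1-D, against 109 and 215 CPM in WT at 12 h, where the genotypes overlapped, and 58.8 and 79 CPM in zed1-D, against 139 and 265 CPM in WT at 48 h.

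CORI3, a coronatine-induced aminotransferase-family gene, had 235 and 252 CPM in zed1-D, against 308 and 322 CPM in WT at 0 h, 645 and 586 CPM in zed1-D, against 299.5 and 305 CPM in WT at 12 h and 155 and 165 CPM in zed1-D, against 422 and 408 CPM in WT at 48 h. LOX2, the lipoxygenase of jasmonate synthesis in chloroplasts, had 4905 and 3384 CPM in zed1-D, against 3547 and 2869.7 CPM in WT at 12 h and 1844 and 1304 CPM in zed1-D, against 4058 and 3047 CPM in WT at 48 h. LOX2 overlapped between the genotypes at 12 h and not at 48 h. CYP81F4, which modifies indole glucosinolates, had 13.8 and 10.4 CPM in zed1-D, against 4.44 and 4.35 CPM in WT at 0 h, 46 and 30 CPM in zed1-D, against 8.29 and 9.04 CPM in WT at 12 h and 3.88 and 4.93 CPM in zed1-D, against 19.7 and 13.8 CPM in WT at 48 h. Its zed1-D libraries were the higher pair at both earlier hours named and the lower pair at the last.

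The rise to 12 h was tested gene by gene within each genotype. Since the 8 genes were grouped after their values were seen, counts over the group describe it and are no test of it. In zed1-D 6 of the 8 were higher at 12 h than at 0 h (10.4% of all genes were), and in WT edgeR called 0 (0.823%), with 2 at an unadjusted p under 0.05 and 1 called by DESeq2. When blocked, all 8 were higher in zed1-D (24.4%) and 7 in WT (10.4%), and whether the rise differed between the genotypes was not tested. CORI3 rose by 1.32 ± 0.14 (edgeR adjusted p 8e-05) and MBP2 by 1.33 ± 0.22 (0.0016), calls that held on leaving out any 1 library. JAL23 rose by 1.79 ± 0.35 (0.0053, lost without zed1-D 0 h replicate 1, 0.07, or 12 h replicate 2, 0.051) and JR1 by 1.41 ± 0.30 (0.0087, lost without the same libraries, 0.1 and 0.083). CYP81F4 rose by 1.64 ± 0.30 (0.0036, 0.053 without zed1-D 0 h replicate 2). BGLU18 rose by 0.91 ± 0.25 (0.032), which ended on leaving out any 1 of the 4 libraries (highest p 0.19, without zed1-D 0 h replicate 2). The fits that left out a library had no replicate term, and these 6 genes passed when blocked, BGLU18 with an edgeR adjusted p of 2.3e-12. MBP1 and LOX2 passed only when blocked (7.8e-09 and 1.2e-13). Blocked, CORI3 was the 1 of the 8 that did not pass in WT (0.33).

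**Figure D4:**
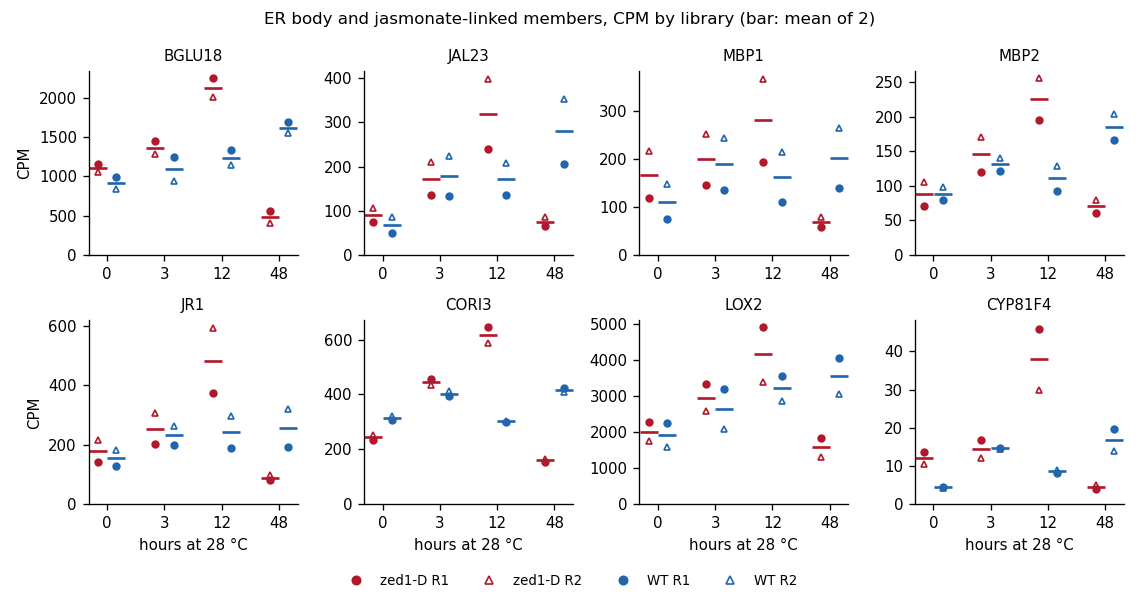
CPM in every library at 0, 3, 12 and 48 h for the 8 ER body and jasmonate-linked members, zed1-D in red left of WT in blue, with bars at the mean of 2 libraries. The zed1-D bar was the higher one at 12 h and the lower one at 48 h in every panel.

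MBP2 and MBP1 are direct neighbours on chromosome 1, with 1225 bases between them, and their promoters are shown to compare a pair with like values. MBP1 (chr1:19352792-19353041, reverse strand) holds 1 G-box, CACGTG, in capitals, starting 105 bases before the gene start. MBP2 (chr1:19349089-19349338, reverse strand) holds none in this window.
MBP1: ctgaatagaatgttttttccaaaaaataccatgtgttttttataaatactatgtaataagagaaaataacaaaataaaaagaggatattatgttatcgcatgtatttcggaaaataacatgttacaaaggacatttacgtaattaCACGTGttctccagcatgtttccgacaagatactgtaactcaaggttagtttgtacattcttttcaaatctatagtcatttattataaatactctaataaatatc
MBP2: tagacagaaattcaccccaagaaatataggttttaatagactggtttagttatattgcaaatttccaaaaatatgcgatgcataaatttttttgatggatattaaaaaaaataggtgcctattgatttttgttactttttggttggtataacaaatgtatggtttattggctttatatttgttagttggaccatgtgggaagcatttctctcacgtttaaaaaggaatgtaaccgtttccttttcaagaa

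A G-box was present in 6.82% of the members' promoters and in 7.35% of those of all genes passing the filter. Reads shared by this pair of similar genes would be missing from both counts.

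The starch and sugar members include 2 cytosolic enzymes, DPE2 and PHS2. DPE2 is a glucanotransferase that processes maltose made from starch at night, and PHS2 is a phosphorylase. DPE2 had 182 and 211 CPM in zed1-D, against 178 and 238 CPM in WT at 0 h, 130.0 and 154 CPM in zed1-D, against 134 and 159 CPM in WT at 3 h and 152 and 185 CPM in zed1-D, against 196 and 249.7 CPM in WT at 12 h. By 48 h it had 87.6 and 93 CPM in zed1-D, against 203 and 261 CPM in WT. The genotypes overlapped at 0 and 3 h, and the zed1-D pair lay below the WT pair at 12 and 48 h. PHS2 had 367 and 411 CPM in zed1-D, against 393 and 450.1 CPM in WT at 0 h and 197 and 187 CPM in zed1-D, against 406 and 486 CPM in WT at 48 h. It was lower at 3 h than at 0 h in zed1-D (-0.73 ± 0.12, edgeR adjusted p 0.0085) and in WT (-0.67 ± 0.12, 0.017), and in each genotype the call ended on leaving out any 1 of the 4 libraries (highest p 0.09 in zed1-D and 0.12 in WT). In zed1-D it was also lower at 12 h (-0.45 ± 0.12, 0.025), again lost on leaving out any 1 library (highest p 0.13).

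BAM6, a beta-amylase, had 2.72 and 3.51 CPM in zed1-D, against 9.45 and 14.3 CPM in WT at 48 h, and AT1G62660, of the invertase family, had 21 and 20.3 CPM in zed1-D, against 53.9 and 41.7 CPM in WT. JMJD5, a clock-linked demethylase-family gene that peaks in the evening, had 75.5 and 51.2 CPM in zed1-D, against 173 and 108 CPM in WT. Among 10 clock genes tested at 48 h, the morning genes LHY, CCA1 and RVE8 were higher in zed1-D (8.32% of all genes were). EdgeR called no other gene of that list in either direction, and 1 was lower when blocked. The list's median log2 fold change was 0.06 against -0.03 for all genes. LHY had 41.2 and 37.8 CPM in zed1-D against 9.83 and 8.85 CPM in WT (log2 fold change 2.02 ± 0.29, edgeR adjusted p 0.00091). The part of clock phase or harvest time in these members' values was not tested.

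The growth and development members were regulators that act in the shoot tip. TFL1, which keeps the inflorescence meristem from turning into a flower, had 2.33 and 1.14 CPM in zed1-D, against 6.8 and 6.41 CPM in WT at 48 h and 4.12 and 3.59 CPM in zed1-D, against 4.56 and 2.9 CPM in WT at 12 h. SPL9, a promoter of the change to the adult phase, had 24.2 and 18.3 CPM in zed1-D, against 22.4 and 21.9 CPM in WT at 0 h and 15.3 and 15.5 CPM in zed1-D, against 45.6 and 34.2 CPM in WT at 48 h. Its relative SPL15 had 8.35 and 5.98 CPM in zed1-D, against 18.5 and 13.1 CPM in WT at 48 h. Both SPL genes stood above their 0 h level in each WT library at 48 h, while in zed1-D SPL9 stood below it and SPL15 overlapped it. CYCD1;1, a D-type cyclin, had 20 and 30.5 CPM in zed1-D, against 47.3 and 80 CPM in WT and RTFL2, of the small ROTUNDIFOLIA-like peptides, had 3.3 and 4.17 CPM in zed1-D, against 9.26 and 11.4 CPM in WT. The homeobox gene HB-3 had 1.36 and 2.85 CPM in zed1-D, against 6.8 and 9.22 CPM in WT. Against 0 h edgeR and DESeq2 called 0 of the 6 at 3 and 12 h in either genotype, and 1 gene had an unadjusted p under 0.05, in WT at 3 h. Blocked, 2 were lower in WT at 3 h (10.9% of all genes), and 1 in zed1-D (19.5%) and 1 in WT (10.9%) at 12 h.

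Cell wall members numbered 10, with a median d of -1.42 at 48 h. EXPA16, a wall-loosening expansin, had 24.4 and 19 CPM in zed1-D, against 22.2 and 21.2 CPM in WT at 0 h, 20.2 and 18.8 CPM in zed1-D, against 15.3 and 12.5 CPM in WT at 12 h and 2.52 and 3.32 CPM in zed1-D, against 11.5 and 10.2 CPM in WT at 48 h. At 48 h it lay below its 0 h level in both genotypes, and further below in zed1-D. CSLA10, of the cellulose synthase-like glucomannan synthases, had 10.7 and 6.92 CPM in zed1-D, against 26.8 and 40.4 CPM in WT and LAC1, a laccase, had 1.94 and 1.9 CPM in zed1-D, against 8.51 and 5.51 CPM in WT. AGP4, an arabinogalactan protein, had 25.2 and 22.3 CPM in zed1-D, against 79.4 and 52.3 CPM in WT, and EXLA2, an expansin-like gene, had 8.16 and 5.98 CPM in zed1-D, against 23.4 and 13.5 CPM in WT. The other 5 were a pectin lyase-like gene (AT4G13210), 2 genes of the inhibitor family of invertases and pectin methylesterases (AT5G62360 and AT5G20740) and 2 glucanase-family genes (AT5G67460 and E13L3), with d from -1.67 to -1.08. Wall genes outside the members did not share the direction as a class, since of 17 expansins and xyloglucan-modifying enzymes 5 were higher and 2 lower in zed1-D at 48 h (8.32% and 6.24% of all genes), or 9 and 6 blocked (22.1% and 23.5%). Of 14 secondary wall genes edgeR and DESeq2 called 0 either way, 2 had an unadjusted p under 0.05, and blocked 1 was higher and 4 lower.

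The 6 cuticle and lipid members had a median difference between 48 and 0 h of -0.11 in zed1-D and 1.20 in WT, on the log2(CPM + 1) scale. CYP96A15, the midchain alkane hydroxylase of stem wax, had 36.8 and 36.7 CPM in zed1-D, against 37.4 and 44.2 CPM in WT at 0 h and 72.6 and 93.2 CPM in zed1-D, against 27.2 and 41.4 CPM in WT at 3 h. By 48 h it had 54.4 and 56.4 CPM in zed1-D, against 139 and 174 CPM in WT. It was thus higher in zed1-D at 3 h and higher in WT at 48 h. In zed1-D it rose by 1.13 ± 0.19 at 3 h (edgeR adjusted p 0.009), a call lost without either 0 h library (0.083 and 0.11) or 3 h replicate 2 (0.098). It rose by 0.65 ± 0.19 at 12 h (0.038), lost without either 0 h library (0.15 and 0.2) or 12 h replicate 2 (0.27).

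AT1G72110, a gene like the wax ester synthase WSD1, had 0.971 and 0.759 CPM in zed1-D, against 4.73 and 8.22 CPM in WT at 48 h and 0.4 and 0.539 CPM in zed1-D, against 1.37 and 0.676 CPM in WT at 0 h. LUP1, a lupeol synthase, had 7.38 and 8.44 CPM in zed1-D, against 20 and 28.3 CPM in WT at 48 h. Both were read above their 0 h level in each WT library at 48 h, and LUP1 below it in each zed1-D library. The lipid-transfer protein gene AT4G33355 had 6.41 and 6.55 CPM in zed1-D, against 14.9 and 15.9 CPM in WT, and its relative AT4G22490 had 15.5 and 10.4 CPM in zed1-D, against 41.4 and 26.3 CPM in WT. ADS1, a fatty acid desaturase, had 4.47 and 4.27 CPM in zed1-D, against 10.2 and 10.8 CPM in WT after 19.5 and 12.2 CPM in zed1-D, against 23.2 and 15.4 CPM in WT at 12 h. Of 15 wax and cutin genes other than CYP96A15, 6 were lower in zed1-D at 48 h (6.24% of all genes were). Blocked, 11 were lower and 2 higher (23.5% and 22.1% of all genes). The median log2 fold change of the 15 was -0.60 against -0.03 for all genes. DCR had 118 and 115 CPM in zed1-D against 220.4 and 211 CPM in WT (-0.95 ± 0.16, edgeR adjusted p 0.002).

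**Figure D5:**
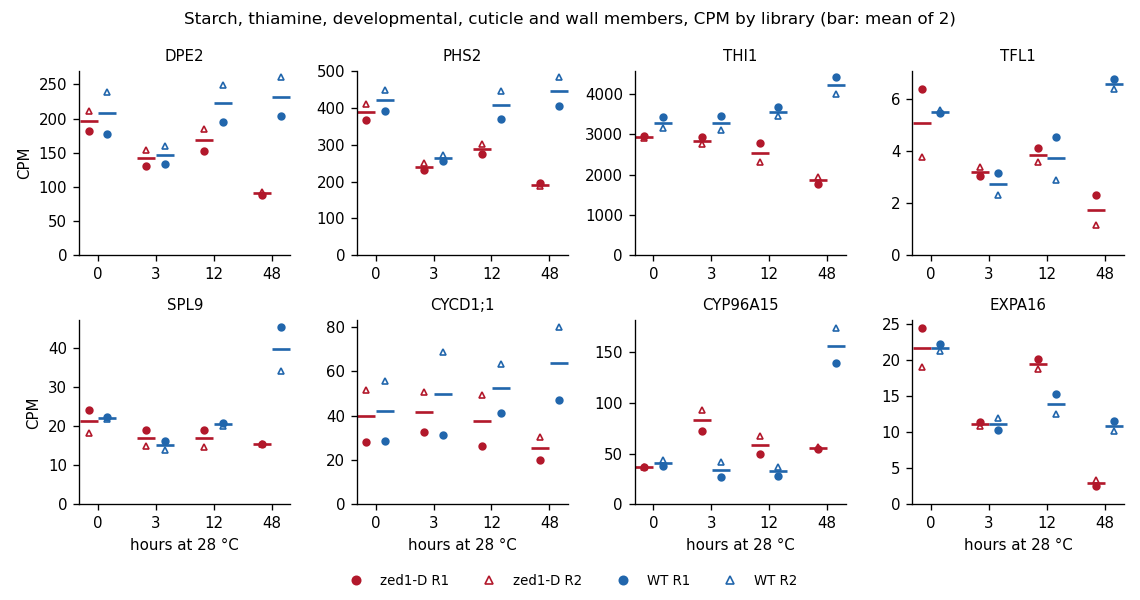
CPM in every library at 0, 3, 12 and 48 h for DPE2, PHS2, THI1, TFL1, SPL9, CYCD1;1, CYP96A15 and EXPA16, zed1-D in red left of WT in blue, with bars at the mean of 2 libraries. All 8 zed1-D pairs lay below the WT pairs at 48 h, SPL9 and CYP96A15 with WT above its 0 h level and EXPA16 with both genotypes below it.

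THI1, which makes the thiazole part of thiamine, was the most abundant member. It had 2969 and 2904 CPM in zed1-D, against 3429.6 and 3152 CPM in WT at 0 h, 2779.8 and 2306 CPM in zed1-D, against 3675 and 3458 CPM in WT at 12 h and 1767 and 1952 CPM in zed1-D, against 4440.0 and 4014 CPM in WT at 48 h. The zed1-D pair lay below the WT pair at each of these hours, and the gap was widest at 48 h. Per length THI1 stood at 1213 RPKM in zed1-D and 2757 RPKM in WT at 48 h, followed in WT by LOX2 (555 RPKM in zed1-D and 1252 RPKM in WT).

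Smaller sets of members touch anthocyanin and sulphur. EGL3, a bHLH partner of the MYB regulators of anthocyanin synthesis, had 2.52 and 4.36 CPM in zed1-D, against 7.18 and 13.8 CPM in WT at 48 h. Of 2 acyltransferase-family genes, AT1G03940 had 5.83 and 5.12 CPM in zed1-D, against 17 and 15.2 CPM in WT and AT1G03495 had 8.74 and 6.17 CPM in zed1-D, against 19.8 and 14.5 CPM in WT. These stayed in the set because the rule removed the anthocyanin genes by name. Of 10 early flavonoid genes, 3 were lower in zed1-D at 48 h (6.24% of all genes were), and 8 when blocked (23.5%). The sulphur-linked members were ATSDI1, a sulphur-deficiency-induced gene, at 0.971 and 2.75 CPM in zed1-D, against 5.48 and 10.8 CPM in WT, the transporter-family gene SULTR3;2 at 1.55 and 1.23 CPM in zed1-D, against 4.91 and 4.25 CPM in WT and the methionine sulfoxide reductase MSRB6 at 14.4 and 16.2 CPM in zed1-D, against 37.6 and 43.6 CPM in WT. ATSDI1 was also higher at 12 h than at 0 h in zed1-D (2.09 ± 0.52, edgeR adjusted p 0.02), lost without either 0 h library (0.094 and 0.15) or 12 h replicate 2 (0.13). Of the 4 other sulphur starvation genes tested between the genotypes at 48 h, edgeR and DESeq2 called 0, with 1 at an unadjusted p under 0.05. Blocked, 1 was lower (23.5% of all genes).

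Other members named for their level or depth were of varied kinds. SEOR1, a filament protein of sieve elements, had 26.8 and 23.1 CPM in zed1-D, against 59.3 and 54.7 CPM in WT at 48 h. Of the 8 other phloem, trichome and stomatal markers, edgeR and DESeq2 called 0 between the genotypes at 48 h, with 1 at an unadjusted p under 0.05. Blocked, 3 were lower (23.5% of all genes). MLP28, a major latex protein-like gene, had 133 and 154 CPM in zed1-D, against 449 and 471 CPM in WT. The acyl-CoA ligase-family gene 4CL8 had 19.5 and 21.7 CPM in zed1-D, against 8.29 and 7.11 CPM in WT at 12 h and 3.3 and 2.56 CPM in zed1-D, against 11.7 and 14.1 CPM in WT at 48 h. Its genotypes turned round as in the ER body and jasmonate-linked members, and here too the rule fixed the 48 h side. 4CL8 was higher at 12 h than at 0 h in zed1-D (1.33 ± 0.19, edgeR adjusted p 0.00079). AT4G29700, an alkaline phosphatase-like gene, had 16.1 and 15.9 CPM in zed1-D, against 68 and 59.7 CPM in WT, and AT5G61290, a flavin monooxygenase-family gene, had 1.36 and 1.14 CPM in zed1-D, against 8.13 and 7.32 CPM in WT. Subtilases, secreted proteases, gave 4 members with d from -1.46 to -1.04, of which AT2G39850 was read most, at 33.6 and 35.7 CPM in zed1-D, against 84.5 and 97.8 CPM in WT.

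The first 12 h at 28 °C were tested within each genotype, which the 48 h choice did not use, although the floor on d at these hours ties the genotypes together. In these contrasts warming, time of day and plant age cannot be told apart. At 3 h, 2 members were higher and 7 lower in zed1-D (2.02% and 0.699% of all genes), and 4 were higher and 7 lower in WT (0.839% and 0.937%). The members called lower included 5 in both genotypes, KIN2, AT4G30650, AT1G13930, PHS2 and ZW9. At 12 h, 17 were higher and 11 lower in zed1-D (10.4% and 4.38%), and 2 were higher and 4 lower in WT (0.823% and 0.689%). For zed1-D at 12 h these are 12.8% and 8.27% of the members. Blocked, the members higher and lower were 25 and 20 in zed1-D (12.8% and 11.1%) and 26 and 26 in WT (9.35% and 10.9%) at 3 h. At 12 h they were 27 and 30 in zed1-D (24.4% and 19.5%) and 31 and 17 in WT (10.4% and 10.9%). Calls that held on leaving out any 1 library numbered 3 of 9 and 8 of 28 in zed1-D at 3 and 12 h, and 3 of 11 and 2 of 6 in WT.

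AT1G13930, an oleosin-like gene, and ZW9, a TRAF-like gene, were also lower at 3 h in both genotypes. AT1G13930 had 596 and 678 CPM in zed1-D, against 709.6 and 732 CPM in WT at 0 h, 229.7 and 251 CPM in zed1-D, against 247 and 289 CPM in WT at 3 h and 222 and 261 CPM in zed1-D, against 631 and 626 CPM in WT at 48 h. Its change at 3 h was -1.45 ± 0.13 in zed1-D (0.00039) and -1.42 ± 0.13 in WT (0.00038), both edgeR adjusted p, and WT had regained most of its level by 48 h. ZW9 had 80.1 and 89.8 CPM in zed1-D, against 80.2 and 106 CPM in WT at 0 h, 35.7 and 39.3 CPM in zed1-D, against 43.2 and 56.2 CPM in WT at 3 h and 20.6 and 21.6 CPM in zed1-D, against 55.2 and 57.9 CPM in WT at 48 h. Its WT libraries at 48 h thus lay near their 3 h level, and its zed1-D libraries below theirs. It was lower at 3 h by -1.22 ± 0.14 in zed1-D (edgeR adjusted p 0.0014) and -0.89 ± 0.13 in WT (0.0062, lost without WT 0 h replicate 2, 0.071, or WT 3 h replicate 1, 0.072).

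A defensin-like gene, AT1G13609, ran the other way. It had 1.8 and 2.34 CPM in zed1-D, against 0.171 and 0.773 CPM in WT at 0 h, 8.77 and 14.6 CPM in zed1-D, against 12.6 and 16.4 CPM in WT at 12 h and 12.6 and 24.6 CPM in zed1-D, against 27.2 and 50.4 CPM in WT at 48 h. The transcript was higher at 12 h than at 0 h in zed1-D (2.45 ± 0.50, edgeR adjusted p 0.0066) and in WT (4.69 ± 0.60, 0.0039). The WT estimate rests on 0.171 and 0.773 CPM at 0 h, near the floor, and ran from 4.23 to 6.17 on leaving out 1 library. Whether the rise differed between the genotypes was not tested. The zed1-D call was lost without either 0 h library (0.054 and 0.061) or 12 h replicate 2 (0.061).

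Gene lists of neighbouring pathways show what else differed in zed1-D at 48 h (8.32% of all genes higher and 6.24% lower). Blocked, 22.1% of all genes were higher and 23.5% lower, and blocked counts are to be read beside these shares. Salicylic acid defence had 12 of 13 higher, with a median log2 fold change of 2.99, and sugar starvation 5 of 8 higher (8 blocked), with 1.21. Aliphatic glucosinolate synthesis had 9 of 10 lower, with -1.14. Tapetum and pollen wall genes had 6 of 12 lower, with -1.10. Mature pollen had 2 of 10 lower (4 lower and 1 higher blocked) and floral organ identity 1 of 12 (3 blocked). Leaf photosynthesis had 0 of 10 called by edgeR, 1 lower by DESeq2, 2 at an unadjusted p under 0.05, and 6 lower and 2 higher blocked. Auxin and warm growth had 0 of 6 by edgeR and DESeq2 (1 at an unadjusted p under 0.05), and phosphate starvation 0 of 6 by both (2 at that p). Blocked, auxin and warm growth had 1 higher and 1 lower, and phosphate starvation 2 higher and 1 lower. Nitrate assimilation had 1 of 5 higher and 1 lower (2 higher and 1 lower blocked). The lists hold 3 members, CYP96A15, SEOR1 and ATSDI1, which are left out of these counts. Over all lists 26 genes were higher and 30 lower of 170 others, and 43 and 69 when blocked.

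Promoter letters were compared between the 132 members with a RefSeq start and 18934 genes passing the filter, which include them. Each motif was sought on both strands of the 250 bases. The evening element AAAATATCT was in 4.55% of the members' promoters and 2.55% of all. The W-box (TTGACC or TTGACT) was in 21.2% of the members' and 28% of all, and the heat-shock element letters GAANNTTC were in 8.33% of the members' and 9.51% of all. The ABA-responsive element (ACGTGGC or ACGTGTC), which can overlap a G-box, was in 6.06% of the members' and 7.3% of all, and the MYB element (ACCAACC or ACCTACC) in 3.79% of the members' and 3.89% of all. The auxin-response letters TGTCTC were in 10.6% of the members' and 10.5% of all, and the I-box GATAAG in 11.4% of the members' and 12.3% of all. These are descriptions of a short window, with no test.

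Membership depends on thresholds that some genes barely met. Just inside were AT5G23240, with d of -1.00015 and -1.593 in the replicate 1 and 2 pairs at 48 h, MES7 (-1.334 and -1.003) and DAW1 (-1.004 and -1.442). Just outside were AT2G42900 (-1.373 and -0.998), AT1G64625 (-0.993 and -1.056) and AT5G42860 (-0.992 and -1.094). Counts of 31 members are uncertain because they overlap another annotated gene and the strand setting of the counting is not given, among them JR1, CYP81F4, PHS2, SPL9, SPL15, CYCD1;1, LUP1, BAM6, AGP4, AT1G13930, AT1G03940, AT4G33355, SULTR3;2, AT4G29700 and AT5G61290. Where other members adjoin, AT2G40820 lies 1 gene from DPE2, and KAT5 lies 2 genes from ATSDI1.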

How the data were processed

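Values were read from 1 deposited file per library. Per the file headers these are the authors' counts of uniquely mapped reads per gene and RPKM values computed from them, with genes not listed in a library set to 0. The submitters' processing notes name the TAIR10 build, and no source used here names the aligner, the counting tool, the annotation or the strand setting. RPKM was recomputed from the counts (largest relative difference 5.93e-08) and printed as deposited; gene length differed between libraries for 317 genes. CPM was computed on each header total. Names and promoters came from RefSeq TAIR10.1, matched by locus tag for 24237 of 25444 identifiers, and 989 identifiers carried a transcript suffix.

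Time contrasts within a genotype, and zed1-D against WT at 48 h for gene lists, were fitted with edgeR 4.0.16 (quasi-likelihood, TMM scaling, filterByExpr, all 16 libraries, 8 residual degrees of freedom) in R 4.3.3, with Benjamini-Hochberg adjustment over 19312 genes and a threshold of 0.05. The model had no replicate term, and same-numbered libraries correlated at a median of 0.85, so blocked values (7 residual degrees of freedom) stand beside a result whose call they alter or whose count they shift more than 1.5 times. The common coefficient of variation was 22.6%, and 5.67% blocked. Fits that left out a library had no replicate term. Each call said to end or be lost there passed when blocked over all 16 libraries. Titles supply the numbers, and this correlation the pairing. Standard errors are the fold change over the square root of its F statistic. Replicates differed beyond sampling noise (chi-square 15.6 to 30.8 for each degree of freedom).

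Alternatives were DESeq2 1.42.0, its size factors, no expression filter, the compared groups alone, leaving out each library, and other settings of the member rule. The members, gene lists and role groups were chosen with earlier results of these data known. Named genes are the 15 members with the lowest d at a mean of at least 5 CPM in WT at 48 h, the 15 with the highest level there, the 5 with the smallest p in each direction in each contrast at 3 and 12 h, those in a gene list or in a group of at least 3 members with related products, and the 5 on each side of the threshold. Up to 3 genes per list outside the members were eligible too. Of these the text gives a choice, and AT5G37950, JMJD5 and PYK10 were named after their values were seen. Sequences come from RefSeq TAIR10.1, 250 bases before each gene start.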

Additional observations from a re-analysis of the deposited data

How the results depend on the processing

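The set itself moved with its thresholds. It held 290 genes with a d of -0.8 or less, 66 with -1.2 or less, 55 with a floor of -0.25 at the earlier hours and 212 with a floor of -0.75. Chosen on the pairs of a single replicate it held 273 to 411 genes. A pseudocount of 0.5 or 2 CPM, TMM scaling and a minimum of 10 reads kept its size within 1.5 times of 133 (90 to 170 genes), but not all of its genes. Of the 133 members, 119 stayed with a pseudocount of 0.5 CPM, 86 with 2 CPM, 116 with TMM scaling and 132 with the minimum of 10 reads. No named member's d at 48 h changed sign, which a change of pseudocount could not bring about.

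Counts of calls depended on the replicate block, which changed no direction of a named call. Blocked, all-gene calls between the genotypes at 48 h numbered 8807 in place of 2812, members called at 3 h numbered 45 in place of 9 in zed1-D and 52 in place of 11 in WT, and at 12 h 57 in place of 28 in zed1-D and 48 in place of 6 in WT. The gene lists, their 3 members included, had 115 in place of 59. Between 0 and 48 h, where the choice of members favoured the direction and the counts are no test, members past the threshold numbered 107 in place of 70 in zed1-D and 93 in place of 26 in WT. With the compared groups alone the all-gene count was 1322. The members called were then 0 at 3 h in zed1-D and in WT, 9 at 12 h in zed1-D, 0 at 12 h in WT and 0 at 48 h in WT, where edgeR gave 23, 26, 21 and 53 members at an unadjusted p under 0.05 for the counts of 0. DESeq2 called 17 members in WT at 3 h. Leaving out 1 library gave 1417 to 1796 all-gene calls. It gave 4 to 5 members at 3 h and 12 to 17 at 12 h in zed1-D, and 3 to 4 at 3 h and 2 to 4 at 12 h in WT. Between 0 and 48 h it gave 45 to 54 in zed1-D and 3 to 9 in WT. Where this left 1 library in a group, its variation was assumed to equal that of the other groups, and the cause of these differences was not tested. Depth limits the weakest members, 24 of which were under 5 CPM in WT at 48 h.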
